A study of Mus musculus with 6 samples.

Results

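The genes described here are the mouse genes named *Spata* (spermatogenesis associated) or *Tex* (testis expressed) followed by a number, with *Tex101* and *Tex12* left out. They were taken by gene name from every non-control probe of a whole mouse genome oligo microarray. The rule found 72 of 41174 probes, for 47 genes, of which 23 were *Spata* and 24 were *Tex* genes, among the 27376 gene names on the array. The rule uses gene names only. RefSeq lists 45 of the 47 genes under the same symbol, gives *Tex13* as *Tex13b*, and has no match for *Tex18*.

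Total testis RNA of 3 *Prss55*-/- and 3 wt male mice, aged 6 to 8 weeks, was hybridized to 1 single-colour array each. All 6 animals were of a mixed 129Sv/C57BL/6 strain and came from a line made by homologous recombination, in which *Prss55*, a testis serine protease gene, was disrupted. The comparison asks which testis transcripts differ in males that lack PRSS55. Whole testis holds germ cells of all stages with Sertoli, Leydig and other somatic cells, so fewer cells of a type and less RNA per cell cannot be told apart. Each array had between 69.5% and 72.9% of its spots well above background and 0 saturated spots. The 3 *Prss55*-/- arrays shared 1 slide and the 3 wt arrays lay on 2 others, so slide and genotype cannot be told apart. The *Prss55* probe gave a quantile-normalized log2 signal of 14.99 ± 0.084 for *Prss55*-/- and 15.89 ± 0.12 for wt testis (SD, n = 3 each; difference -0.90, limma adjusted p = 0.0100). This call was lost without *Prss55*-/- replicate 2 (limma adjusted p = 0.060), *Prss55*-/- replicate 3 (0.070) or wt replicate 1 (0.063), with a difference of -0.87 to -0.91. Whether that probe lies in the disrupted part of the gene is not given in the sources used here.

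*Spata* and *Tex* are naming series, not protein families. Their members were found as transcripts enriched in testis or linked to spermatogenesis, and they act at many steps, from the pairing of chromosomes in meiosis and the cytoplasmic bridges between germ cells to the acrosome, the mitochondrial sheath and the neck of the sperm. Several are also used outside the testis, in vesicle traffic, protein quality control, ubiquitin signalling or the photoreceptor cilium.

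Of the 72 probes, 70 were tested, which required a signal well above background on each of the 3 arrays of 1 or both genotypes. All 70 met this on the 6 arrays. They cover 46 of the 47 genes. The single probe of *Spata5l1* was not well above background on any array, and 1 of the 3 probes of *Spata6* was so on 2 of 3 arrays in each genotype.

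The genes gave bright probes. By mean log2 signal over the 6 arrays, 31 of the 70 probes (44.3%) lay in the top 10% of the 28606 tested probes and 6 in the top 1%. The median probe stood at percentile 87.1, with a log2 signal of 13.19 against 9.55 for the median of all tested probes. Taking the brightest probe of each gene, 42 of 46 genes were above the array median and 25 were in the top 10%. *Tex18*, *Spata13*, *Tex16* and *Tex11* were the 4 genes below it. The median percentile was 91.3 for the 34 *Spata* probes and 80.3 for the 36 *Tex* probes. A rank compares signals of different probes, which also depend on the probe, and is given as a description of the array readout.

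**Figure D1:**
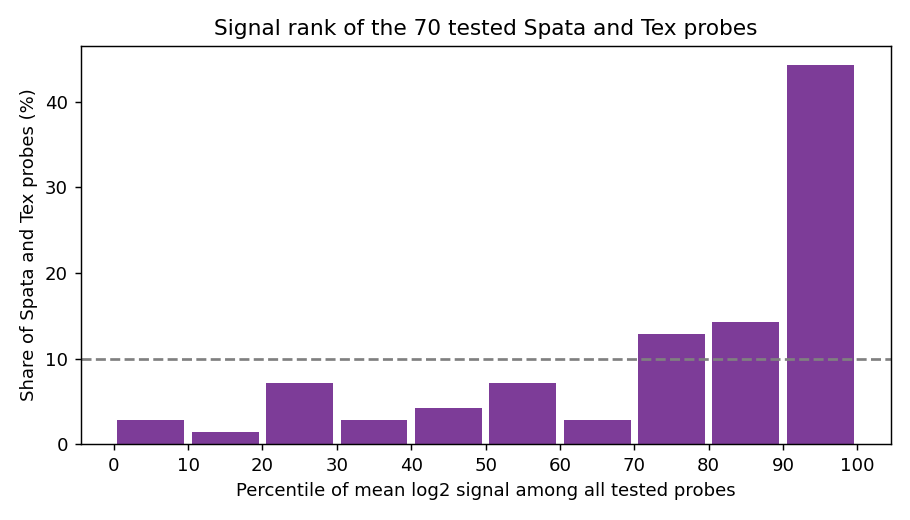
Share of the 70 tested Spata and Tex probes (y axis, percent) in 10-point steps of the signal ranking of all tested probes (x axis, percentile of the mean log2 signal). The dashed line marks the 10% that each step holds over the whole array, and the highest step holds 44.3% of the Spata and Tex probes.

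The 10 brightest genes were, in order, *Spata24*, *Spata19*, *Spata4*, *Tex33*, *Spata20*, *Tex37*, *Spata1*, *Spata18*, *Spata16* and *Spata31d1a*. *Spata24* ranked 70 of 28606, with log2 signals of 17.31, 17.35 and 17.28 on the *Prss55*-/- arrays and 17.41, 17.32 and 17.36 on the wt arrays. *Spata19*, whose product sits on sperm mitochondria, ranked 90 with 17.21, 17.14 and 17.21 against 17.19, 17.25 and 17.27. The genotypes overlapped for both genes. *Spata4* ranked 113 and *Tex33* 126. *Spata20*, which encodes a thioredoxin-like protein, ranked 242. *Spata18*, which acts in mitochondrial quality control, ranked 494, and *Spata16*, an acrosome gene whose loss gives round-headed sperm in humans, ranked 523.

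Between the genotypes these 10 genes differed by log2 values from -0.30 for *Spata31d1a* to 0.04 for *Spata1*, and none passed the adjusted threshold in limma, with 2 at an unadjusted p below 0.05 (20.0%, background 19.1%). *Spata31d1a*, of the *Spata31* family, had log2 signals of 15.38, 15.48 and 15.34 in *Prss55*-/- and 15.73, 15.60 and 15.74 in wt testis, with no overlap (difference -0.30, standard error 0.064, limma adjusted p = 0.091). *Tex37* had 16.49, 16.48 and 16.40 against 16.61, 16.63 and 16.59, also without overlap (difference -0.15, standard error 0.048, limma adjusted p = 0.18). For the other 8 genes the differences were between -0.09 and 0.04, and all but *Spata16* overlapped. *Spata16* had 15.98, 15.98 and 15.95 against 16.06, 16.09 and 16.02 (difference -0.09, limma adjusted p = 0.35). The sign of the small differences of *Spata24* (-0.05) and *Spata20* (-0.02) turned under another scaling or background correction.

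**Figure D2:**
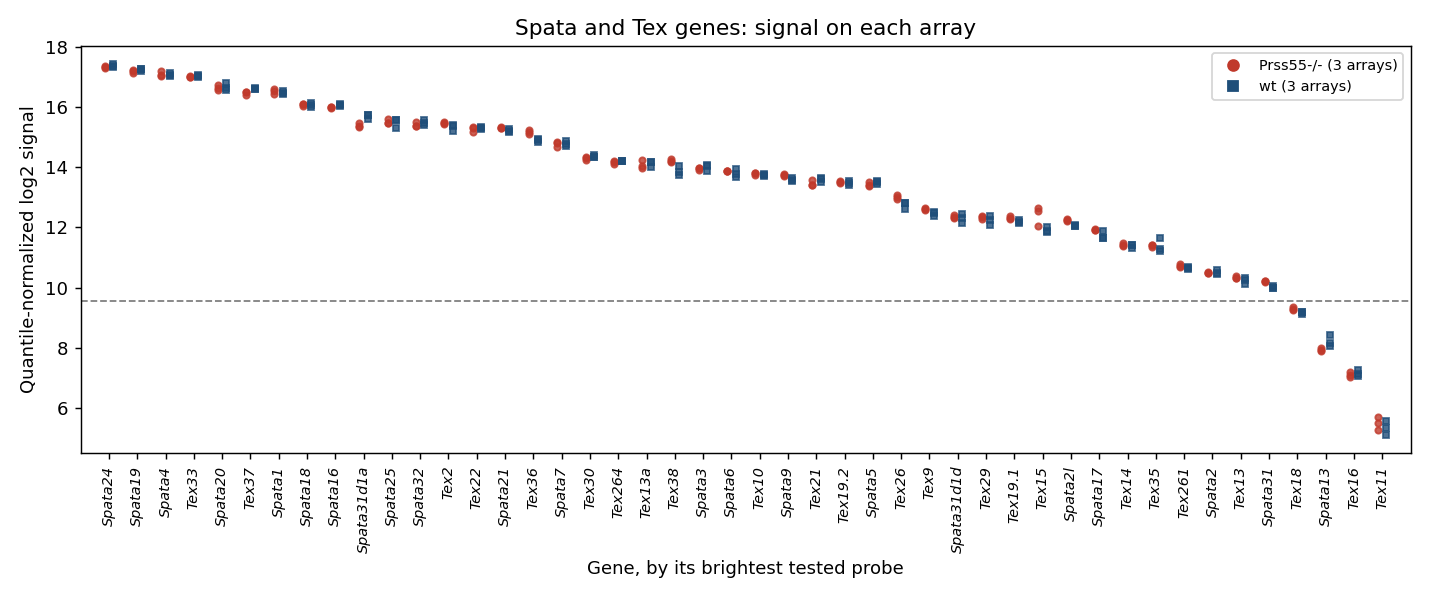
Quantile-normalized log2 signal (y axis) of the brightest tested probe of each of 46 Spata and Tex genes (x axis), in order of mean signal, with 1 point for each of 3 Prss55-/- arrays (circles) and 3 wt arrays (squares). The dashed line is the median of all tested probes, 9.55, and 42 genes lie above it with their genotypes close together.

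Over all 70 probes, the position in the ranking was nearly the same in both genotypes. The percentile within *Prss55*-/- testis differed from that within wt testis by a median of 0.533 points and by at most 6.18 points, the latter for a *Tex261* probe. Over all tested probes the median was 0.944 points and the maximum 70.4. The median log2 difference was 0.0269 over the *Spata* and *Tex* probes and 0.00188 over all tested probes, and without wt replicate 2 the values were 0.0025 and 0.0027. The median absolute log2 difference was 0.074 over the *Spata* and *Tex* probes and 0.0947 over all tested probes. The 95% confidence interval of the log2 difference lay within 2-fold in either direction for 70 of the 70 probes, and for 95.6% of all tested probes. The half-width of the interval had a median of 0.16 and a maximum of 0.39, the latter for *Tex15*. The median SD between arrays was 0.050 in *Prss55*-/- and 0.070 in wt testis for these probes. Over all tested probes it was 0.074 and 0.088. The *Spata* and *Tex* probes are brighter than most, and the part of brightness in these smaller values was not tested.

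A limma adjusted p below 0.05 was reached by 2 of the 70 probes, 1 of *Spata7* (lower in *Prss55*-/- testis) and 1 of *Tex38* (higher), against a background of 1.21% of all tested probes. Both an unadjusted limma p below 0.05 and a 2-fold difference were reached by 0 of the 70, with a background of 0.608%. An unadjusted limma p below 0.05 alone was reached by 20 probes of 17 genes (28.6%), 13 higher and 7 lower, with a background of 19.1%. With normexp background correction it was reached by 14 probes, 8 higher and 6 lower. Every *Prss55*-/- array lay above every wt array for 19 probes (27.1%, background 13.4%), and below every wt array for 8 (11.4%, background 12.9%). When 1 array was left out in turn, the number past the adjusted threshold was 4 without *Prss55*-/- replicate 1, 1 without wt replicate 2 or wt replicate 3, and 0 without *Prss55*-/- replicate 2, *Prss55*-/- replicate 3 or wt replicate 1. The number over all tested probes moved as well, from 346 in the main fit. It was 855, 63 and 38 without *Prss55*-/- replicates 1, 2 and 3, and 69, 127 and 377 without wt replicates 1, 2 and 3. The number of *Spata* and *Tex* probes at an unadjusted limma p below 0.05 was 11 without *Prss55*-/- replicate 3 or wt replicate 1, 13 when *Prss55*-/- replicate 2 or wt replicate 2 was left out, 16 for *Prss55*-/- replicate 1 and 21 for wt replicate 3. The share of all tested probes at this unadjusted threshold was counted in the main fit only.

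**Figure D3:**
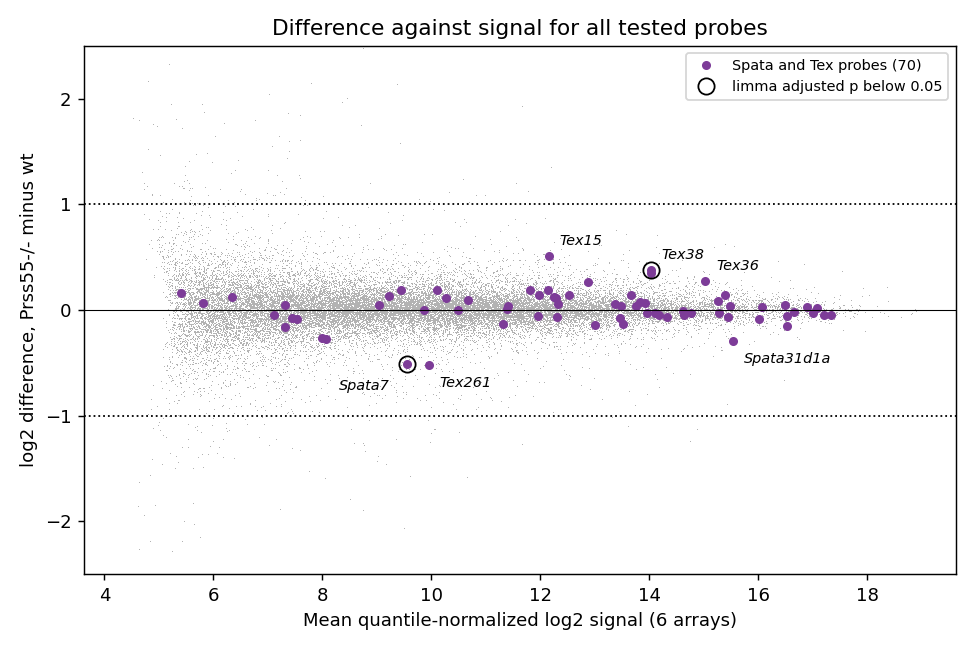
The log2 difference, Prss55-/- minus wt (y axis, cropped at 2.5 in either direction, which leaves out 31 probes), against the mean quantile-normalized log2 signal (x axis) for all 28606 tested probes (grey) and the 70 Spata and Tex probes (purple). Dotted lines mark 2-fold, no Spata or Tex probe reaches them, and the 2 ringed probes (Spata7 and Tex38) passed the adjusted threshold.

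The call for *Spata7* rested on 1 of its probes. *Spata7* encodes a protein of the photoreceptor connecting cilium, and its loss causes retinal degeneration. Both probes lie on the forward strand of chromosome 12 in mm9, 39.6 kb apart. The probe A_52_P437868 (99907536 to 99907595) was designed from the *Spata7* mRNA, and A_52_P134680 (99867893 to 99867952) from a cDNA of adult mouse brain that the array annotation calls unclassifiable. The first 30 of the 60 bases of each are shown, because the genotypes differed at one and not at the other.
Spata7 mRNA probe: cgaaaacaagatgttctctttaccgggcga
Spata7 brain cDNA probe: agtctctgatagcaactagtgaggtcttgt

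The brain cDNA probe of *Spata7* had log2 signals of 9.29, 9.28 and 9.33 in *Prss55*-/- testis and 9.83, 9.82 and 9.79 in wt testis. All *Prss55*-/- arrays were lower, and the spread within each genotype was small (SD 0.026 and 0.023, n = 3 each). The difference was -0.51 (standard error 0.044, 95% interval -0.62 to -0.41, 1.43-fold, limma adjusted p = 0.0089). The mRNA probe, which ranked 1452 of 28606, had 14.82, 14.78 and 14.67 against 14.72, 14.77 and 14.88. Its genotypes overlapped, with a difference of -0.03 (95% interval -0.19 to 0.13, limma adjusted p = 0.82). The gap between the 2 probes, mRNA probe minus brain cDNA probe, was 5.52, 5.51 and 5.34 in *Prss55*-/- and 4.88, 4.96 and 5.09 in wt testis, a difference of 0.48 (exact permutation test, two-sided, p = 0.1, which is the lowest value possible with 3 arrays against 3, and 0.47 after Benjamini-Hochberg adjustment over 28 probe pairs). This pair was tested after its values were known. The call of the brain cDNA probe was lost without *Prss55*-/- replicate 2 (limma adjusted p = 0.063), *Prss55*-/- replicate 3 (0.062) or wt replicate 1 (0.060), with differences of -0.50 to -0.53.

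*Tex38* encodes a small membrane protein of spermatids. Its probes overlap on the reverse strand of chromosome 4 in mm9, A_51_P287802 from 115452602 to 115452661 and A_51_P287798 from 115452562 to 115452621. They share 20 of their 60 bases, read neighbouring stretches of the same transcript and are not independent. The last 30 bases of the first probe and the first 30 of the second are shown, with the 20 shared bases in capitals.
Tex38 first probe: tgccaagcctTTTGCTTTAGAGCTGTAGTT
Tex38 second probe: TTTGCTTTAGAGCTGTAGTTtcctcttagt

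The second *Tex38* probe had log2 signals of 14.18, 14.22 and 14.25 in *Prss55*-/- and 13.75, 13.89 and 13.88 in wt testis. The difference was 0.38 (standard error 0.057, 95% interval 0.24 to 0.52, 1.30-fold, limma adjusted p = 0.0467). The first probe had 14.18, 14.21 and 14.27 against 13.74, 14.03 and 13.84, a difference of 0.35 (standard error 0.082, 1.27-fold, limma adjusted p = 0.10). The genotypes did not overlap at either probe. The call of the second probe lay close to the threshold: its limma adjusted p was 0.051 to 0.20 with 1 array left out, whichever array it was, and 0.041 to 0.20 over all 14 alternatives, with differences of 0.33 to 0.40.

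**Figure D4:**
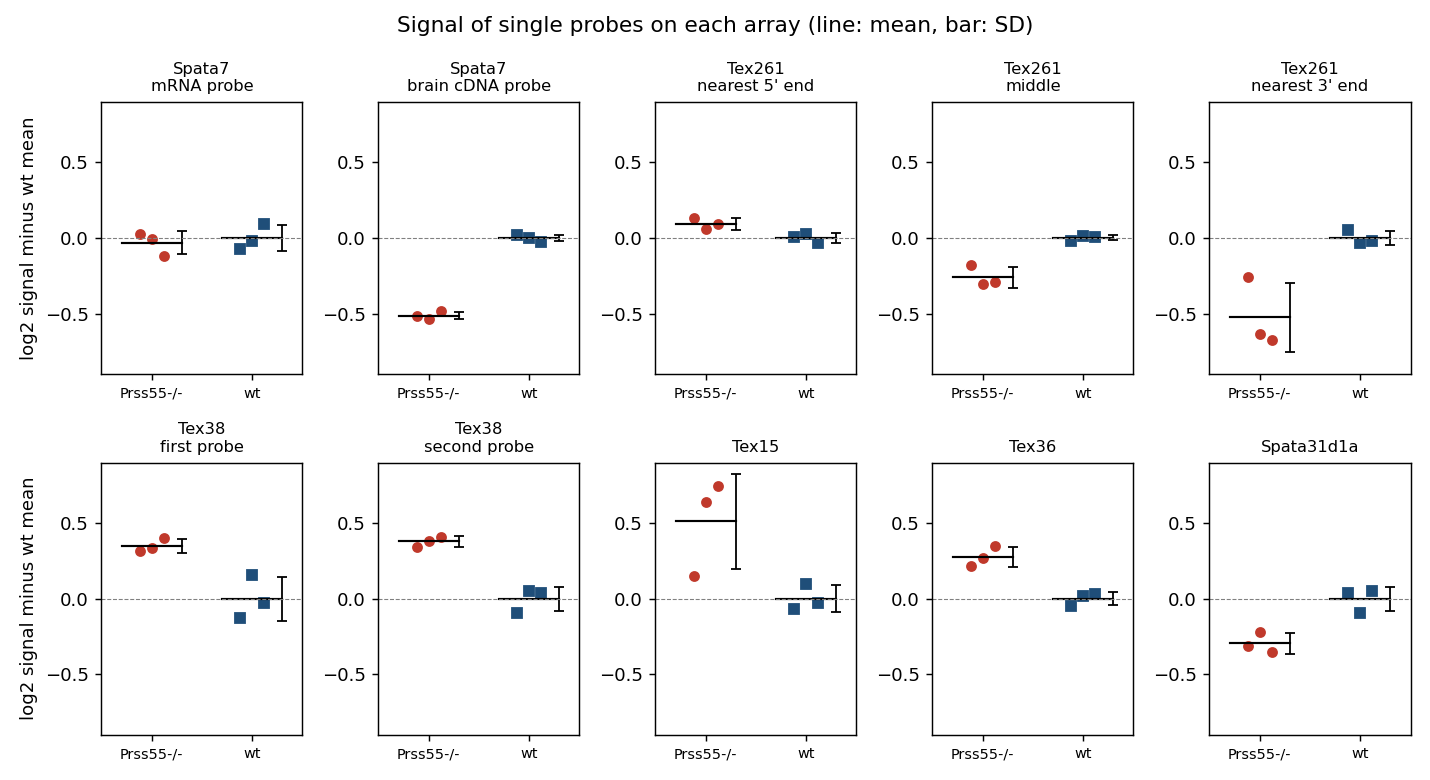
The log2 signal minus the wt mean of the same probe (y axis) on each of 3 Prss55-/- arrays (circles) and 3 wt arrays (squares) for 10 probes of Spata7, Tex261, Tex38, Tex15, Tex36 and Spata31d1a. Lines are means and bars are SD. The Spata7 probes differ by -0.03 and -0.51, and the Tex261 probes by 0.09, -0.26 and -0.52 in order along the gene.

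*Tex261*, which encodes a transmembrane protein of the early secretory pathway, had 3 probes that did not move together. They lie on the reverse strand of chromosome 6 in mm9. From the 5′ to the 3′ side these are A_52_P654021 (83721539 to 83722290, a span of 752 bases and so across an intron), A_52_P378452 (83719964 to 83720023) and A_51_P147654 (83719134 to 83719193). The first 30 bases of each are shown because the 3 sites gave different values.
Tex261 5′ probe: gaatcattacctggcatttcagttttttgc
Tex261 middle probe: gcagctacaggtgagattgccagacctgtt
Tex261 3′ probe: acatgggctctgggccccagcctcctatac

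The 3′ probe of *Tex261* had log2 signals of 9.95, 9.58 and 9.54 in *Prss55*-/- and 10.26, 10.18 and 10.19 in wt testis. All *Prss55*-/- arrays were lower, replicate 1 least so. The difference was -0.52, the largest in size of the 70 probes (standard error 0.12, limma adjusted p = 0.096). The middle probe had 7.95, 7.82 and 7.84 against 8.11, 8.14 and 8.13, a difference of -0.26 (standard error 0.052, limma adjusted p = 0.081). The 5′ probe had 10.77, 10.695 and 10.73 against 10.65, 10.67 and 10.60, with every *Prss55*-/- array higher (difference 0.09, standard error 0.047, limma adjusted p = 0.34). Without *Prss55*-/- replicate 1, the 3′ probe passed the adjusted threshold (difference -0.65, limma adjusted p = 0.0088), as did the middle probe (-0.30, limma adjusted p = 0.0493). Calls over the whole array rose from 346 to 855 in that fit. Without *Prss55*-/- replicate 2 or 3 the limma adjusted p was 0.25 or 0.29 for the 3′ probe and 0.24 or 0.28 for the middle probe. Each of these 2 probes passed in 1 of the 14 alternatives.

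The gap between the 5′ and the 3′ probe of *Tex261* was 0.82, 1.12 and 1.19 in *Prss55*-/- and 0.38, 0.48 and 0.41 in wt testis. The gap between the 5′ and the middle probe was 2.82, 2.87 and 2.89 against 2.54, 2.52 and 2.47. Both gaps separated the genotypes, by 0.62 and 0.35 (two-sided exact permutation tests, p = 0.1 each, the lowest value possible, and 0.47 after adjustment over the 28 pairs). *Tex261* was named because its probes disagreed, so these pairs were picked by their values and the tests add nothing to the separation. Gaps of this kind, with no overlap between genotypes, were found for 6 of 28 probe pairs (21.4%, background 17.6% of 13305 probe pairs over the array) in 4 of the 20 genes with more than 1 tested probe, *Spata7*, *Tex261*, *Tex26* and *Tex30*. All pairs of *Tex261* are among them and are not independent, as they share probes. No pair differed by more than 1 on the log2 scale, and the median absolute difference was 0.0854.

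The *Tex26* probes, 165 bases apart on chromosome 5, also disagreed. The brighter one had log2 signals of 12.95, 13.01 and 13.06 in *Prss55*-/- and 12.62, 12.80 and 12.80 in wt testis (difference 0.27, standard error 0.069, limma adjusted p = 0.12). The other had 12.30, 12.31 and 12.20 against 12.27, 12.27 and 12.46, and its genotypes overlapped (difference -0.06, standard error 0.070, limma adjusted p = 0.66).

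*Spata20* had probes on both strands. Of the 62 probes whose gene has a strand in the RefSeq promoter table of GRCm38.p6, 61 lay on the strand of their gene and 1, A_52_P659953 of *Spata20*, on the opposite one. It lies on the forward strand of chromosome 11 in mm9 (94340376 to 94340435), was designed from an mRNA record named TISP78, and pairs with 36 bases of the sense probe A_52_P4869 (94340400 to 94340459). The first 30 of these bases are shown in each orientation, with capitals marking that every base is shared.
Spata20 sense probe: AGTTACGAAAGCTGCTACACCAATGACTGC
Spata20 opposite-strand probe: GCAGTCATTGGTGTAGCAGCTTTCGTAACT

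The *Spata20* sense probe had log2 signals of 16.72, 16.58 and 16.64 in *Prss55*-/- and 16.56, 16.64 and 16.80 in wt testis. The opposite-strand probe had 9.24, 9.08 and 8.87 against 9.10, 9.04 and 8.92, ranked 16023 of 28606. The genotypes overlapped at both. Values given for *Spata20* elsewhere are those of the sense probe.

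Among the genes of meiosis and of the bridges between germ cells, none passed the adjusted threshold. The list held 7 tested genes, *Tex11*, *Tex14*, *Tex15*, *Tex19.1*, *Tex19.2*, *Spata5* and *Tex30*, of which *Spata5* (an ATPase of ribosome maturation) and *Tex30* are not known for meiosis. Their median log2 difference was 0.04, and 2 were higher and 0 lower at an unadjusted limma p below 0.05 (28.6%, background 19.1%). *Tex15*, needed for meiotic recombination and for silencing of transposons in fetal male germ cells, had log2 signals of 12.06, 12.55 and 12.65 in *Prss55*-/- and 11.84, 12.005 and 11.88 in wt testis. Replicate 1 of *Prss55*-/- was close to the wt arrays and the other 2 were well above them. The difference was 0.51 (standard error 0.16, 1.43-fold, limma adjusted p = 0.17). *Tex15* passed the adjusted threshold in 1 of the 14 alternatives. This was the fit that dropped *Prss55*-/- replicate 1 (difference 0.69, limma adjusted p = 0.0173). That fit also raised the calls over all tested probes from 346 to 855. Dropping *Prss55*-/- replicate 2 instead gave 0.45 (limma adjusted p = 0.36), and dropping replicate 3 gave 0.40 (0.39).

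*Tex14*, which builds the intercellular bridges, stood at percentile 71.6 with a difference of 0.04 (95% interval -0.09 to 0.17). *Tex11*, an X-linked gene of synapsis and crossover formation, had the dimmest of the tested probes, at percentile 1.89, with log2 signals of 5.69, 5.51 and 5.28 in *Prss55*-/- and 5.57, 5.12 and 5.32 in wt testis. The other X-linked members ranged from percentile 20.7 for *Tex16* over 58.6 for *Tex13* to 92.2 for the brighter probe of *Tex13a*. The genotypes overlapped for *Tex11*, *Tex16* and *Tex13a*, and for *Tex13* the difference was 0.11 (limma adjusted p = 0.36).

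The list of genes for spermatid and sperm structure held 17 tested genes with a median percentile of 96.9, and 14 were in the top 10%. These were *Spata3*, *Spata4*, *Spata6*, *Spata16*, *Spata18*, *Spata19*, *Spata20*, *Spata24*, *Spata31*, *Spata32*, *Tex22*, *Tex29*, *Tex33*, *Tex35*, *Tex36*, *Tex37* and *Tex38*. Of them, *Spata18* and *Spata20* were described above by functions other than structure. The median log2 difference of the 17 genes was -0.02. At an unadjusted limma p below 0.05, 3 were higher (*Tex36*, *Tex38* and *Spata31*) and 1 was lower (*Tex37*), together 23.5% against a background of 19.1%. *Tex36* had log2 signals of 15.10, 15.16 and 15.24 in *Prss55*-/- and 14.84, 14.90 and 14.92 in wt testis, without overlap (difference 0.28, standard error 0.055, limma adjusted p = 0.080). *Spata31* had 10.22, 10.18 and 10.22 against 10.06, 9.99 and 9.999 (difference 0.19, standard error 0.046, limma adjusted p = 0.11). *Spata6*, which forms the neck that joins sperm head and tail, stood at percentile 91.0 with a difference of 0.08 (95% interval -0.11 to 0.26).

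The other 22 tested genes had a median percentile of 87.0 and a median log2 difference of 0.05, with 5 higher and 2 lower at an unadjusted limma p below 0.05 (31.8%, background 19.1%). They include genes with known roles outside germ cells. *Spata13* had log2 signals of 8.00, 7.93 and 7.88 in *Prss55*-/- and 8.05, 8.43 and 8.16 in wt testis without overlap (difference -0.27, standard error 0.11, limma adjusted p = 0.24). Without wt replicate 2 the difference was -0.16. *Spata13* is the only one of these genes on chromosome 14, which also holds *Prss55*, 3.31 Mb away by the mm9 positions of the probes. *Tex2*, a lipid transfer protein of the endoplasmic reticulum, stood at percentile 96.8 with a difference of 0.14 (limma adjusted p = 0.31), *Tex264*, a receptor for autophagy of the endoplasmic reticulum, at 92.6 with -0.05 (0.60), *Tex10*, of the ribosome-processing Rix1 complex, at 90.6 with 0.04 (0.71), and *Spata2*, an adaptor of the deubiquitinase CYLD, at 61.2 with 0.00 (0.99), all by their brightest probe and limma adjusted p.

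A list of 24 genes for partners of the encoded proteins had 1 gene past the adjusted threshold (4.17%, background 1.21% of probes), *Rpgrip1*, whose product binds SPATA7 in the photoreceptor cilium. The brightest *Rpgrip1* probe had log2 signals of 15.18, 15.10 and 15.11 in *Prss55*-/- and 15.55, 15.54 and 15.46 in wt testis. All *Prss55*-/- arrays were lower (difference -0.39, standard error 0.051, limma adjusted p = 0.0335), and its 3 probes differed by -0.35 to -0.39. *Rpgrip1* lies on chromosome 14, 11.9 Mb from the *Prss55* probe. Its call was lost without *Prss55*-/- replicate 2 (limma adjusted p = 0.14), *Prss55*-/- replicate 3 (0.16), wt replicate 1 (0.14) or wt replicate 2 (0.10). It was also lost with no filter (limma adjusted p = 0.069), a replicate block (0.16) or the methods' t-test (adjusted p = 0.075). The call was kept in 7 of the 14 alternatives, over which the adjusted p was 0.0297 to 0.16. The median log2 difference over the 24 genes was -0.01, and 3 were higher and 1 lower at an unadjusted limma p below 0.05 (16.7%, background 19.1%).

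Markers of cell types were read on the same arrays, by the brightest probe of each gene. In limma 0 of 77 passed the adjusted threshold and 19 had an unadjusted p below 0.05 (24.7%, background 19.1% of all tested probes). Those of round spermatids, in which many of the genes above are used, had a median log2 difference of 0.14, with 6 of 12 higher at an unadjusted limma p below 0.05, and a summed log2 signal of 18.41 to 18.50 in *Prss55*-/- against 18.30 to 18.39 in wt testis. Elongating spermatid markers had a median of -0.02 and sums of 21.42 to 21.48 against 21.46 to 21.50, and spermatocyte markers 0.04 and 19.09 to 19.15 against 19.02 to 19.15. Sertoli cell markers had a median of -0.02. Leydig cell markers were at -0.50 (3 of 9 lower at an unadjusted p below 0.05, sums 15.91 to 16.34 against 16.32 to 16.48) and macrophage markers at -0.14. Of 8 epididymis markers on the array, 5 were not bright enough to be tested, and the other 3 had a median log2 difference of 0.32. Their sum was 7.66 to 8.27 against 8.90 to 9.19, with differences of -2.91 for *Rnase10*, 0.53 for *Lcn9* and 0.32 for *Cst11*. The part of any of these in the values of the *Spata* and *Tex* genes was not tested.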

How the data were processed

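Scanner files for the 6 arrays were deposited by the authors, made with Agilent Feature Extraction 10.7 per the labels, whose processed signal is a linear intensity corrected for background within the array, with calls of spots well above background. Per the file headers the probe positions are on mm9. The deposited matrix holds quantile-normalized log2 values and was used as an alternative. Control spots and outlier spots were left out here, signals below 1 were set to 1, log2 intensities were quantile-normalized (the normalization the methods name) and spots of a probe averaged. A probe was kept if the scanner software called it well above background on every array of 1 or both genotypes, which left 28606. Genotypes were compared by lmFit and eBayes of limma 3.58.1 (R 4.3.3) with two-sided p values and Benjamini-Hochberg adjustment over all 28606 (threshold 0.05). The 3 arrays per genotype limit the precision, and p values cover the spread between these mice.

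The members and gene lists were chosen with earlier results of these data known. Each gene was represented by its brightest probe. Genes were named by rule: those past a threshold, the 10 brightest, the 5 with the largest remaining difference, genes whose probes disagreed, and members of the role lists. *Rpgrip1* was named because it was the 1 called gene of the list of partners. Round, elongating spermatid, spermatocyte, spermatogonia (median log2 difference 0.06), Sertoli cell, Leydig cell, macrophage and epididymis marker lists were read from the same fit. Alternatives were 75th percentile scaling, the deposited matrix, normexp background correction with an offset of 50, no filter, a filter on all 6 arrays, a replicate block, slide as a random block, the methods' t-test and leaving out each array. The slide block cannot separate slide from genotype, because no slide held both genotypes. Simulated arrays with known changes were used to test the fit. They had independent noise for each probe and no slide effect, so they could not show how slide affects these values. Tables and plots were made with Python 3.11.15, pandas 2.3.3, scipy 1.17.1 and matplotlib 3.10.9. Replicate numbers did not pair the arrays (correlations of same-numbered deviations -0.05, -0.02 and -0.11). Sequences are those of the array's probes, of which at most 30 bases are printed.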

Additional observations from a re-analysis of the deposited data

How the results depend on the processing

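The number of probes past the limma adjusted threshold, 2, was 1 with 75th percentile scaling, the deposited matrix, no filter, slide as a random block or the methods' t-test, and 2 with normexp or the stricter filter. Over all tested probes it was 346 in the main fit, 357 with that scaling, 340 with the deposited matrix and 140 with no filter. It was 287 with the slide block, 87 with the methods' t-test, 355 with normexp and 391 with the stricter filter. Under normexp the called *Tex38* probe was the first one (limma adjusted p = 0.0282), not the second (0.0727). The *Spata* and *Tex* count was 0 to 4 with 1 array left out in turn, and the count over all tested probes 38 to 855. With a replicate block, whose numbers may not pair the arrays, these counts were 0 and 13. The *Prss55* probe then kept its difference of -0.90 with a limma adjusted p of 0.10. By the methods' t-test that difference had an adjusted p of 0.071. With 1 array left out the *Prss55* difference ranged from -0.96 to -0.84 and its limma adjusted p rose to at most 0.070. The count past an unadjusted p below 0.05 and 2-fold was 0 under all 14 alternatives, the median log2 difference was 0.0025 to 0.0370, and 30 to 36 probes were in the top 10% under the 9 alternatives tried for it. *Spata24* had a difference of 0.0074 with 75th percentile scaling and 0.030 with normexp, *Spata20* of 0.016 and 0.0069, and *Spata2* of 0.0042 with 75th percentile scaling. With 1 array left out, differences that turned were those of *Spata4* (-0.0219 to 0.0561), *Spata18* (-0.0034 to 0.0597), *Spata20* (-0.0749 to 0.0456), *Spata2* (-0.0303 to 0.0397) and the *Spata7* mRNA probe (-0.0690 to 0.0130). Of 448 values recomputed for named probes, 407 kept their direction and side of the threshold, 24 lost it, 4 passed it and 13 turned. Most of these probes were not called in the main fit and so could not lose the threshold. Of the 14 alternatives, the call was kept in 10 for the *Spata7* brain cDNA probe, 1 for the second *Tex38* probe and 7 for *Rpgrip1*. The cause of these changes was not tested. Signals near background limit *Spata5l1*, 1 *Spata6* probe, *Tex11* and the dimmest *Spata17* probe.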
